A study of Mus musculus with 14 samples.

Results

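A set of 10 genes of fibroblast growth factor (FGF) signalling were followed through the libraries: the ligands Fgf2 and Fgf7, the receptors Fgfr1, Fgfr2 and Fgfr3, the feedback inhibitors Dusp6, Spry1, Spry2 and Spry4, and the transcription factor gene Etv5. They were chosen by symbol, with earlier results of these data known. Each of the 10 has a row among the 24346 genes of the count table. All 10 also passed the minimum of 10 counts in at least 2 libraries, which 13130 genes passed. The cells are MC3T3-E1, a line from mouse skull bone that can mature into bone-forming osteoblasts. Libraries labelled control and libraries labelled MACF1 knockdown were sequenced at days 0, 3 and 5, with 2 of each condition a day that the series' design text calls biological replicates, and at day 10 with 1 of each. MACF1 is a large protein that links microtubules to actin. The titles mark the conditions NC and sh, and the sources used here do not say further how the knockdown was made, whether the cells are 1 clone, what the days are counted from or which medium was used.

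FGF ligands bind receptor tyrosine kinases together with heparan sulfate and switch on the Ras-ERK chain. ERK activity raises transcription of genes such as Dusp6, the Sprouty genes and Etv5, and the Sprouty proteins and the phosphatase DUSP6 then damp the same chain. In bone, FGF receptors act on the growth and maturation of osteoblast precursors and of cartilage cells.

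The gene named in the labels was examined first. Macf1 stood at 154 and 160 CPM (counts scaled to a common library size) in the control libraries of day 0 and at 157 and 163 in those labelled knockdown. At day 3 it was at 189 and 55.2 in control against 172 and 170, and at day 5 at 176 and 205 against 169 and 181. The 2 conditions overlapped on each of these days, and the averaged difference was 0.13 on the log2 scale (SE 0.24, quasi-likelihood test of edgeR, Benjamini-Hochberg adjusted p = 0.724). At day 10, with 1 library each, the values were 195 and 129. Macf1 mRNA therefore does not check the labels at days 0, 3 and 5, and every direction below is between libraries labelled knockdown and libraries labelled control.

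Total counts ran from 8044687 to 23301514 a library. The smallest was control day 3 replicate 2, which stood apart: 17.8% of its counts were from ribosomal protein genes, against 7.58 to 10.4% in the other control libraries and 5.31 to 7.46% in those labelled knockdown, and its log2 CPM correlated with those of its replicate at 0.924, where the other pairs gave 0.987 to 0.989. With that library left out, the common dispersion, a measure of the spread between replicates, dropped from 0.0474 to 0.0115, so many results below are given with and without it. Osteoblast markers summed to 12470 to 27160 CPM in control and 11970 to 20950 in labelled knockdown libraries, sums carried mostly by Col1a1, Col1a2 and Spp1. Ibsp also weighed on the sums where it was high, with a median of 236 and a highest value of 8390 CPM. Of the 9 osteoblast markers, 3 fell in the averaged comparison, Runx2 by 0.61, Alpl by 2.66 and Ibsp by 3.57 (adjusted p = 0.00208, 6.78e-07 and 1.21e-06), and 2 rose, Spp1 and Bglap. In that comparison 26.9% of all genes tested were called, 15.0% higher and 11.9% lower. Chondrocyte markers summed to 149.5 to 373.2 CPM in control and 216.5 to 343.5 in labelled knockdown libraries, and 1 of 6 tested rose. Sox9 and Col2a1 had medians of 119 and 156 CPM, while Acan and Matn1 were each at 0 in 8 libraries. Muscle markers summed to 1.54 to 5.58 and 6.67 to 26.2 CPM, epithelial markers to 0.643 to 7.76 and 9.93 to 51.9, and adipocyte markers to 6.15 to 9.94 and 2.02 to 5.57. Among single markers, Myog was at 0 in 12, Ckm in 13, Krt19 in 13 and Adipoq in 13 of the 14 libraries, while Des, Cdh1, Krt14 and Cebpa were at 0 in none. Cebpa had a median of 4.52 and a highest value of 9.94 CPM, and no other adipocyte marker went above 1.91. Of 2 tested adipocyte markers 1 fell, beside 11.9% of all genes lower. Of 6 muscle and 6 epithelial markers in the count table, 3 and 2 reached the minimum counts. All of these rose, beside 15.0% of all genes higher: Des, Acta1 and Tnnt1 of muscle, and Cdh1 and Krt14 of epithelium. Markers near 0 in control could reach the minimum counts through the labelled knockdown libraries alone. Tnnt1, for example, had a median of 0.49 and a highest value of 12.9 CPM. That all rose is therefore not comparable with the share of all genes. Krt14 was at a mean of 0.562 CPM in control and 44.0 in labelled knockdown libraries of day 0. The ribosomal share and these markers move with the averaged comparison, and their part in the results below was not tested. In bulk RNA, fewer cells of a type and less RNA per cell cannot be told apart.

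Averaged over days 0, 3 and 5, Dusp6, Spry4 and Etv5 rose and Fgfr3 fell in the libraries labelled knockdown, and the other 6 genes did not pass the test. These 4 of 10 calls (quasi-likelihood test of edgeR, Benjamini-Hochberg adjusted over all genes tested, threshold 0.05) stand beside 26.9% of all genes tested, made up of 15.0% that were higher and 11.9% that were lower. The median difference of the 10 genes was 0.37 on the log2 scale, and that of all genes tested was -0.0032. Without control day 3 replicate 2, 7 of the 10 were called, 5 higher and 2 lower, beside 47.1% of all genes.

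**Figure D1:**
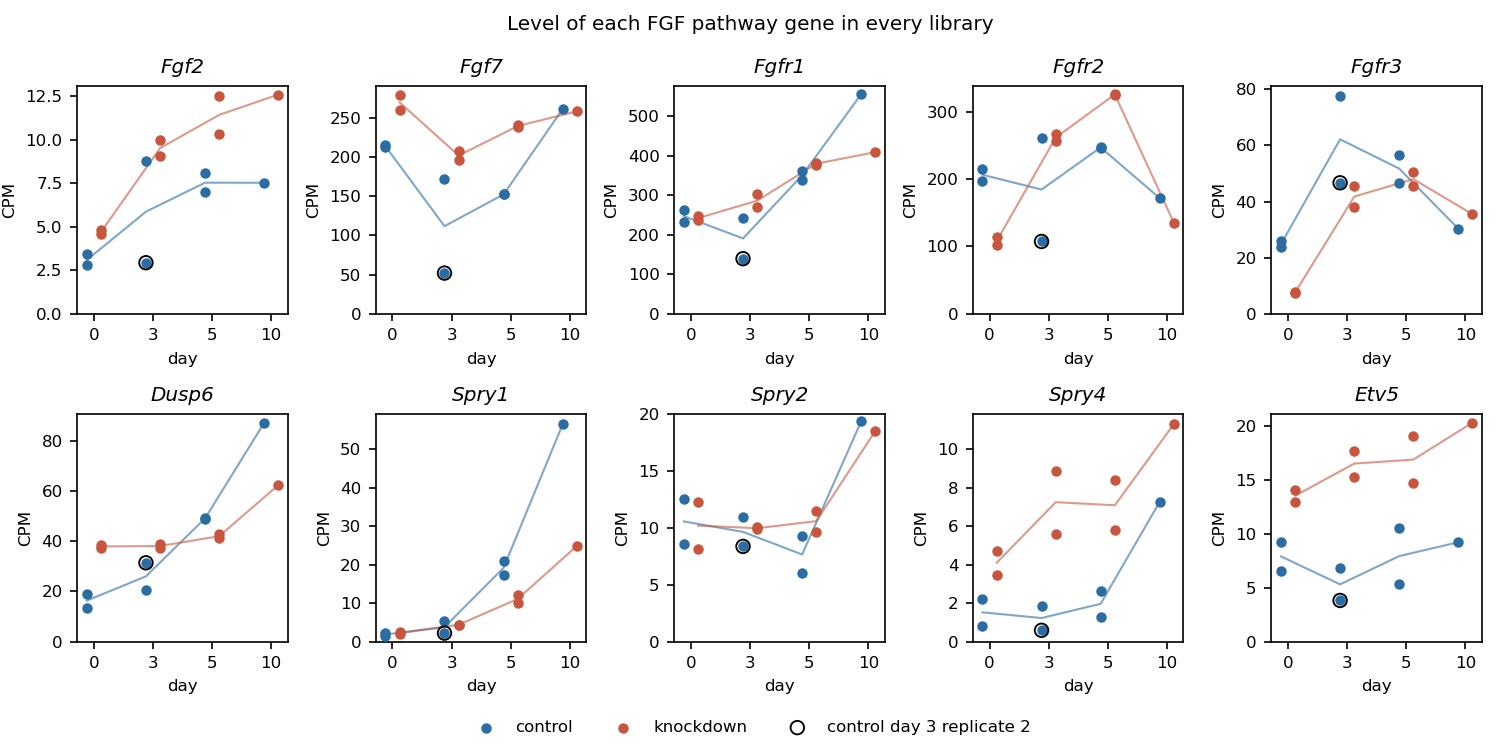
Level of each gene in CPM (vertical axes, from 0) by day (horizontal axis, evenly spaced labels), with 1 point per library, lines through the means, and a ring around control day 3 replicate 2. Spry4 and Etv5 lie higher in every labelled knockdown library than in any control library of the same day, Spry1 climbs further in control, and the ringed library is the lowest control library for Fgf7, Fgfr1, Fgfr2, Spry4 and Etv5.

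The feedback and output genes carried 3 of the 4 averaged calls. Spry4, a Sprouty inhibitor of receptor tyrosine kinase signalling, was at 0.821 and 2.22 CPM in control and 3.47 and 4.73 in labelled knockdown libraries at day 0. At day 3 it was at 1.86 and 0.587 against 5.61 and 8.90, and at day 5 at 1.28 and 2.65 against 5.80 and 8.39. The groups did not overlap on any of these days. The averaged log2 difference was 1.90 (SE 0.32, 95% interval 1.18 to 2.62, adjusted p = 0.00214), and it was called under 19 of 19 alternatives, with adjusted p up to 0.0107. Control counts were few, from 4 in control day 3 replicate 2 to 34, so the size is imprecise, and adding 1 to RPKM before taking logs gave 0.78.

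Etv5, an ETS transcription factor gene that responds to FGF and ERK, was at 6.57 and 9.24 CPM in control day 0 libraries and at 13.0 and 14.1 in those labelled knockdown. The values were 6.81 and 3.82 against 15.3 and 17.7 at day 3, and 5.36 and 10.5 against 19.1 and 14.7 at day 5. Every labelled knockdown library of these days was above every control library. Averaged, the log2 level of Etv5 rose by 1.16 (SE 0.21, adjusted p = 0.0028), a call made under 19 of 19 alternatives. At day 10 Etv5 was at 9.22 and 20.3 CPM, and Spry4 at 7.27 and 11.3, in single libraries.

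Dusp6, the gene of a phosphatase that acts on ERK, did not follow that pattern. It was at 13.6 and 19.1 CPM in control and 38.5 and 37.4 in labelled knockdown libraries at day 0, and at 20.6 and 31.4 against 37.2 and 39.0 at day 3. At day 5 the order turned, with 48.9 and 49.4 in control against 43.0 and 41.1, and at day 10 the single libraries held 87.2 and 62.4. The labelled knockdown libraries were thus above control with no overlap at days 0 and 3 and below it with no overlap at day 5. The day 5 log2 difference was small, -0.22 (SE 0.22, quasi-likelihood test of edgeR, adjusted p = 0.647), and was called under 0 of 20 alternatives. The averaged log2 difference of 0.52 (SE 0.13, adjusted p = 0.0151) sums over these days. It was called under 17 of 19 alternatives and missed the threshold without control day 0 replicate 1 (0.44, adjusted p = 0.0504) and without control day 5 replicate 1 (0.49, adjusted p = 0.0516).

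Sequence just upstream was read for the members found in the RefSeq promoter table (GRCm38.p6), 8 of the 10. Dusp6 and Etv5 were each called higher in the averaged comparison, but their log2 CPM correlated at only 0.373 over the 14 libraries. Both are printed as the 250 bases before the gene's first listed start. These lie at chr10:99262981-99263230 on the plus strand and chr16:22439571-22439820 on the minus strand.
Dusp6: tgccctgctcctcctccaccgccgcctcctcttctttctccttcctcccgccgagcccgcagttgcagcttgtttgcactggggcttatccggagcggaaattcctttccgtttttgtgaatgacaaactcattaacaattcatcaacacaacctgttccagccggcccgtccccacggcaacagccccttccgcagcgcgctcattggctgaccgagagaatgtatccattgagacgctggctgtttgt
Etv5: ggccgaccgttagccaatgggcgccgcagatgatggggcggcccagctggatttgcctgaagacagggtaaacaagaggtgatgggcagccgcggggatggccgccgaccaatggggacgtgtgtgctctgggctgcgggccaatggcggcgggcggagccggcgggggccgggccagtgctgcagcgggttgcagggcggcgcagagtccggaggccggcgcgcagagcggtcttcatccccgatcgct
Each of these windows was searched on both strands for CCGGAA, a motif of ETS factors, and TGANTCA, a motif of AP-1. Neither was found in any of the 8 genes, while 3952 (CCGGAA) and 2217 (TGANTCA, 6.75%) of all 32851 promoters of that length hold them. After those searches gave no match, the shorter ETS core GGAA was searched as well; it is in 93.4% of all promoters and in at least 1 window of each of the 8 genes, so it does not set them apart. No letters are capitalised because no motif marks these genes, and a missing match says only that those letters are not in this window.

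Spry1 (chr3:37639947-37644599, plus strand) and Spry2 (chr14:105891947-105896819, minus strand), the other Sprouty genes, did not pass the averaged test. Spry1 was at 2.21 and 1.46 CPM in control against 2.01 and 2.43 at day 0, and at 5.33 and 2.20 against 4.40 and 4.38 at day 3. At day 5 it was at 17.3 and 21.0 against 9.96 and 12.2, and at day 10 at 56.5 against 24.9. The groups overlapped at days 0 and 3, and at day 5 the labelled knockdown libraries were both lower. The day 5 log2 difference was -0.79 (SE 0.32, adjusted p = 0.182), or -0.80 (adjusted p = 0.00473) with control day 3 replicate 2 left out. Spry2 was between 5.99 and 12.5 CPM in all 12 libraries of days 0, 3 and 5, with an averaged difference of 0.15 (SE 0.17, adjusted p = 0.562), and at 19.4 and 18.5 at day 10.

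Among the receptors, Fgfr3 (chr5:33721724-33737068 in RefSeq's GRCm38.p6, plus strand, protein-coding) fell. It was at 26.0 and 23.7 CPM in control and 7.44 and 7.86 in labelled knockdown libraries at day 0. At day 3 it was at 77.7 and 46.7 against 38.2 and 45.4, and at day 5 at 46.8 and 56.8 against 45.6 and 50.4. The groups were apart at day 0, narrowly apart at day 3 and overlapping at day 5, and the single libraries of day 10 had the other order, 30.4 in control and 35.5. The averaged log2 difference was -0.80 (SE 0.14, 95% interval -1.10 to -0.49, adjusted p = 0.00246), called under 19 of 19 alternatives.

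Fgfr2 (chr7:130162451-130266808, minus strand) was at 197 and 215 CPM in control and 102 and 114 in labelled knockdown libraries at day 0. At day 3 it was at 261 and 107 against 266 and 257, and at day 5 at 246 and 247 against 324 and 327. The labelled knockdown libraries were lower at day 0 and higher at day 5, each with no overlap, and at day 10 the single libraries were at 171.5 in control and 134.9. By the quasi-likelihood test of edgeR, the log2 difference was -0.93 at day 0 (SE 0.32, adjusted p = 0.131) and 0.40 at day 5 (SE 0.32, adjusted p = 0.551). These were called under 6 and 4 of 20 alternatives, among them those without control day 3 replicate 2 (-0.93 and 0.39). The averaged log2 difference was -0.01 (SE 0.18, adjusted p = 0.971). Leaving out control day 3 replicate 2 gave -0.18 (adjusted p = 0.019) and leaving out replicate 1 of that group gave 0.25 (adjusted p = 0.00292), so the sign turns with the choice of library.

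Fgfr1, the receptor with the highest mean RPKM (reads scaled to gene length and library size, 55.8 against 38.8 for Fgfr2 and 8.06 for Fgfr3), was at 231 and 263 CPM in control and 238 and 247 in labelled knockdown libraries at day 0. At day 3 it was at 242 and 140 against 270 and 303, and at day 5 at 340 and 362 against 378 and 382. On average Fgfr1 differed by 0.22 (SE 0.14, adjusted p = 0.256), and by 0.11 (adjusted p = 0.17) with control day 3 replicate 2 left out. Fgfr1 was called under 1 of 19 alternatives, the one without replicate 1 of that group (0.37, adjusted p = 0.000306). At day 10 it was at 556 and 409.

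The mix of receptor mRNA differed at day 0. By RPKM, Fgfr1 made up 50.0 and 51.6% of the 3 receptors in control and 68.0 and 66.3% in labelled knockdown libraries of that day, while Fgfr3 made up 6.64 and 5.50% against 2.51 and 2.50%. At day 5 the Fgfr1 shares were 52.6 and 53.2% against 49.7 and 49.4%. The Sprouty mix moved with time: Spry1 went from 11.0 and 9.84% of the 3 Sprouty genes at day 0 to 55.6 and 67.6% at day 5 in control, and from 9.46 and 14.5% to 33.5 and 39.4% in labelled knockdown libraries. These shares are descriptions with no test.

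**Figure D2:**
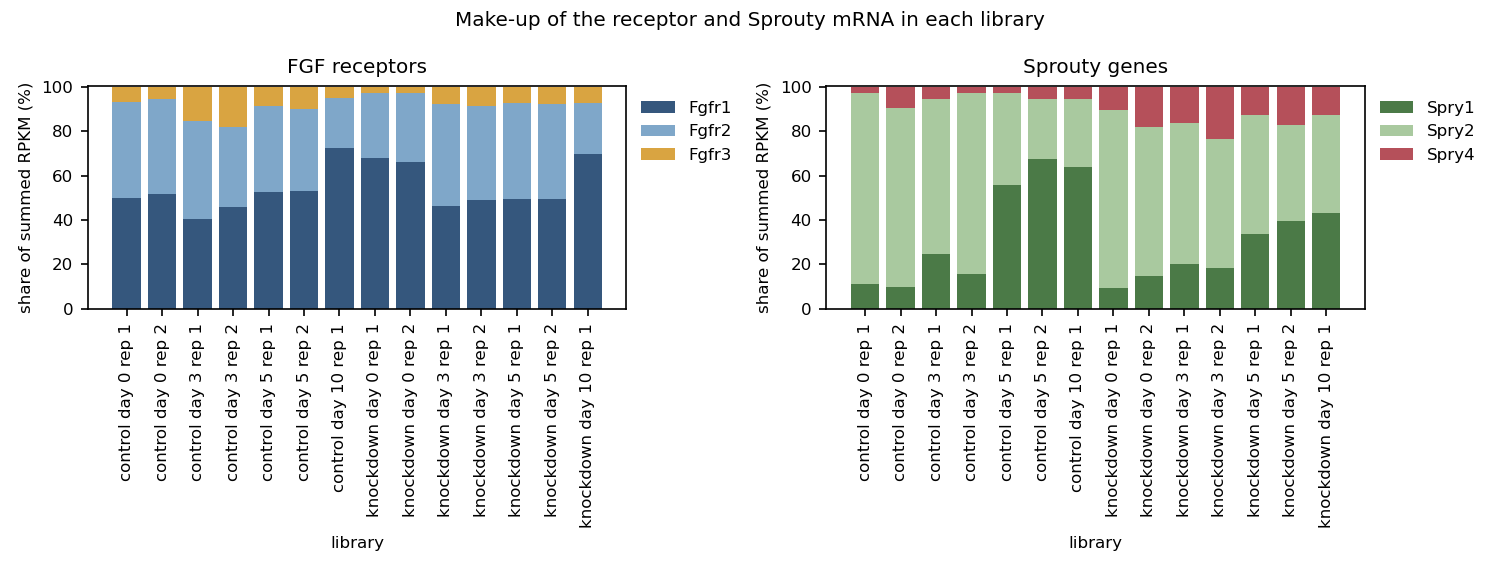
Share of the summed RPKM (vertical axis, percent) of the 3 receptors (left) and the 3 Sprouty genes (right) in each of the 14 libraries. Fgfr1 takes 68.0 and 66.3% in the labelled knockdown libraries of day 0 against 50.0 and 51.6% in control, and the Spry1 share is larger at day 5 than at day 0 in both conditions.

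At days 0, 3 and 5 both ligands were higher in each labelled knockdown library than in the control libraries of that day, but they did not pass the averaged test. The share of all genes with such an order was not counted. Fgf7, a ligand made by mesenchymal cells, was at 215 and 212 CPM in control against 279 and 260 at day 0. It was at 172 and 52.0 against 207 and 197 at day 3, and at 152 and 152 against 238 and 241 at day 5. On average Fgf7 differed by 0.61 (SE 0.23, adjusted p = 0.0772), and 0.40 (adjusted p = 7.05e-05) without control day 3 replicate 2. At day 10 the single libraries were at 261 and 258.

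Fgf2, a ligand that binds several FGF receptors, was at 3.41 and 2.78 CPM against 4.83 and 4.59 at day 0. It was at 8.80 and 2.94 against 10.0 and 9.04 at day 3, and at 6.97 and 8.10 against 12.5 and 10.3 at day 5. The averaged log2 difference was 0.61 (SE 0.22, adjusted p = 0.0657), and 0.44 (adjusted p = 0.00922) without control day 3 replicate 2. By RPKM Fgf2 was 0.633 to 2.62% of the sum of the 2 ligands. Fgf2 shares 640 exon bases with the antisense gene Nudt6, which had 560 counts in all against 1777 of Fgf2, and the strand setting of the counting is not given, so its values are uncertain. Spry1 likewise shares 710 exon bases with antisense Gm42922 (107 counts against 2904). Fgfr3 shares 998 with antisense G630022F23Rik (14 counts against 8535). Fgfr2 shares 314 with Ctbp2, which is on the same strand and has no row in the count table used here.

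**Figure D3:**
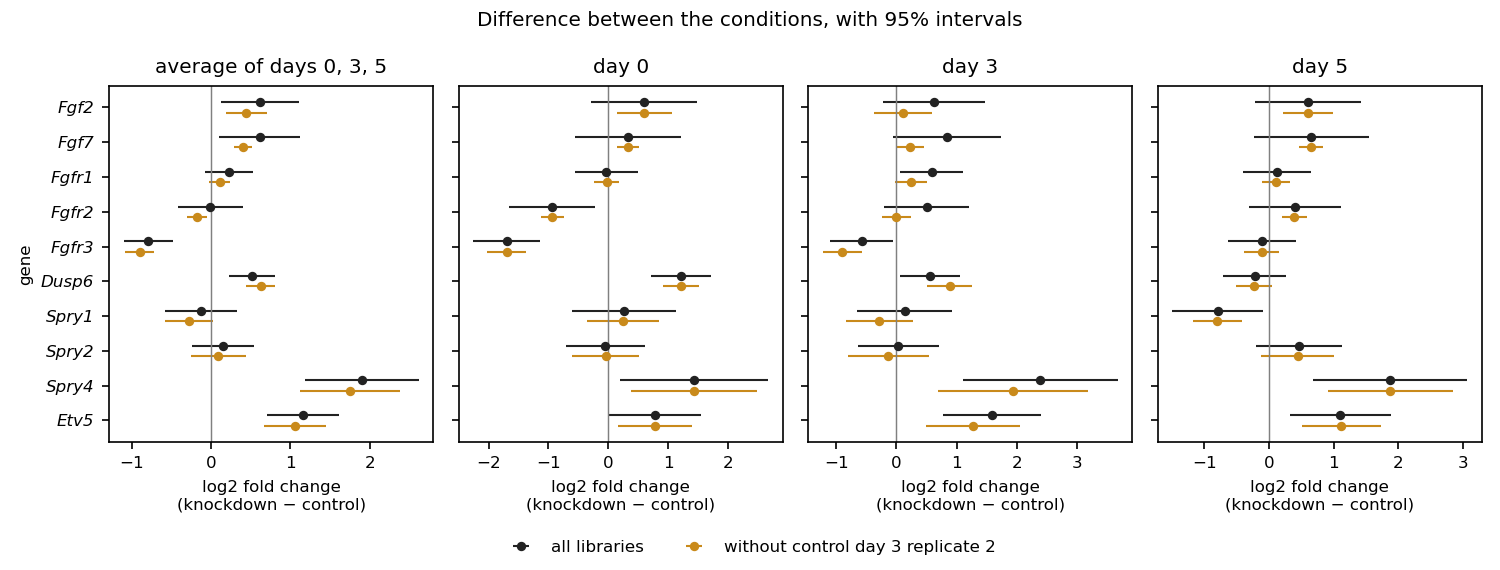
Log2 fold change of libraries labelled knockdown against control (horizontal axes) with 95% intervals for each gene, averaged and by day, from all libraries (black) and without control day 3 replicate 2 (ochre). Spry4 and Etv5 lie to the right of 0 in each panel, Fgfr2 and Dusp6 lie on opposite sides of 0 at days 0 and 5, and the ochre intervals are mostly shorter.

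Day by day, fewer calls were made. At day 0, Dusp6 rose by 1.22 (SE 0.23, adjusted p = 0.00973) and Fgfr3 fell by 1.70 (SE 0.25, adjusted p = 0.00274), 2 of 10 beside 7.09% of all genes. Dusp6 no longer passed when control day 0 replicate 1 was left out (0.99, adjusted p = 0.115), or either labelled knockdown library of day 0 was (1.19 and 1.24, adjusted p = 0.0722 and 0.0612). At day 3, Spry4 rose by 2.39 (adjusted p = 0.0288) and Etv5 by 1.59 (adjusted p = 0.0247), 2 of 10 beside 12.6%. Leaving out labelled knockdown day 3 replicate 1 or 2 ended both calls (Spry4, adjusted p = 0.0742 and 0.16; Etv5, 0.0901 and 0.134), and leaving out replicate 1 or 2 of labelled knockdown day 0 ended that of Spry4 (0.0508 and 0.0509). At day 5, 0 of 10 were called beside 7.78% of all genes; 3 had an unadjusted p under 0.05, and DESeq2 called 2. With the replicate number as a block, Spry4 was called at day 5 (1.89, adjusted p = 0.0406, against 0.065 with no block). With control day 3 replicate 2 left out the counts were 5, 4 and 6 of 10 at days 0, 3 and 5, beside 28.7%, 21.0% and 31.5%.

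Whether the difference varied between days was tested jointly. It was called for 0 of 10 genes beside 0.998% of all genes, with 3 at an unadjusted p under 0.05 and 2 called by DESeq2. Without control day 3 replicate 2, Fgfr2 (adjusted p = 0.000141), Fgfr3 (0.000922) and Dusp6 (0.00107) were called, 3 of 10 beside 8.62%.

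With time, Spry1, Fgfr3 and Dusp6 rose in control cells. From day 0 to day 5, the log2 level of Spry1 rose by 3.37 (SE 0.37, adjusted p = 0.000511), Dusp6 by 1.59 (SE 0.23, adjusted p = 0.00237) and Fgfr3 by 1.06 (SE 0.24, adjusted p = 0.024), 3 of 10 beside 8.13% of all genes. In libraries labelled knockdown, Fgfr3 rose by 2.65 (SE 0.25, adjusted p = 0.000764), Spry1 by 2.32 (SE 0.35, adjusted p = 0.0111) and Fgfr2 by 1.59 (SE 0.33, adjusted p = 0.0412), 3 of 10 beside 2.00%. The Fgfr3 call in control was lost when any 1 of the 4 control libraries of days 0 and 5 was left out (0.91 to 1.18, adjusted p = 0.0864 to 0.189), and the Spry1 call in labelled knockdown libraries when any 1 of their 4 was (2.17 to 2.46, adjusted p = 0.0596 to 0.166). Fgfr2 there had an adjusted p of 0.0519 with the replicate block and of 0.0833 to 0.334 when any 1 library of days 0, 3 and 5 other than the control libraries of day 3 was left out. Dusp6 differed by 0.15 (SE 0.22, adjusted p = 0.903) over the same days in these libraries, which began at the higher day 0 level.

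By day 3, 1 of the 10 genes was called in each condition: Fgfr3, with 1.33 in control (adjusted p = 0.0101, beside 10.7% of all genes) and 2.45 in labelled knockdown libraries (adjusted p = 0.00209, beside 0.906%). Each call was lost when either day 0 library of its condition was left out (adjusted p = 0.0709 and 0.111 in control, 0.0637 and 0.0517 in labelled knockdown). Without control day 3 replicate 2, 4 and 5 genes were called by day 3 in the 2 conditions, beside 26.0% and 14.7%, and 7 and 5 by day 5, beside 31.6% and 15.6%. The comparisons of one condition share their day 0 libraries with each other and with the day 0 difference.

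Among themselves the 10 genes did not move as 1 block. Over the 14 libraries, log2 CPM of Spry4 and Etv5 correlated at 0.903, of Fgfr1 and Spry1 at 0.852 and of Dusp6 and Spry1 at 0.788, while Fgf7 and Fgfr3 stood at -0.427. Of 9964 genes with a mean of at least 5 CPM, Nrp2 (0.973), Npnt (0.966) and Alpl (0.931) were most like Fgfr3, Hivep2 (0.946) most like Spry1, Bhlhe41 (0.932) most like Dusp6 and C3 (0.943) most like Etv5. These are descriptions over 14 libraries that share condition, day and depth, control day 3 replicate 2 included.

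Other genes of the pathway were counted from lists in the averaged comparison, to be read beside the 26.9% of all genes called (15.0% higher, 11.9% lower), or 47.1% without control day 3 replicate 2. The lists too were chosen with earlier results of these data known. Of 15 tested further feedback inhibitors, 4 were called, a share close to that of all genes: 3 rose and 1 fell, or 6 and 4 without that library. Dusp5, a phosphatase of nuclear ERK, rose by 0.90 (SE 0.11, adjusted p = 0.000307) and Spred2, a Sprouty relative, by 0.73 (adjusted p = 0.00921), while Dusp7 fell by 0.57 (adjusted p = 0.00462). Of 19 other ERK-responsive genes 5 rose and 2 fell, or 7 and 4 without that library, beside 26.9% and 47.1% of all genes called. Etv1, of the same ETS subfamily as Etv5, was at 2.62 to 5.77 CPM in the 6 control libraries of days 0, 3 and 5 and at 14.9 to 19.5 in the 6 labelled knockdown ones, and rose by 2.29 (SE 0.14, adjusted p = 3.53e-06). Phlda1 rose by 0.78 and Fosl1 by 0.66 (adjusted p = 0.00128 and 0.000638).

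On the receptor side, 3 of 7 tested co-receptors and related genes rose and none fell, or 4 and 0 without control day 3 replicate 2, beside 15.0% of all genes higher and 11.9% lower with all libraries. The 3 include Flrt1. Its means at days 0, 3 and 5 were 0 to 0.211 CPM in control and 0.174 to 0.811 in labelled knockdown libraries. It could reach the minimum counts only with the help of labelled knockdown libraries, so its direction is not comparable with those shares. Flrt2, a membrane protein that can bind FGF receptors, rose by 1.26 (SE 0.12, adjusted p = 6.77e-05). Of 9 heparan sulfate core proteins 1 rose and 4 fell, or 1 and 5 without that library, beside the same shares. Sdc3 was at 56.9 to 191 CPM in control and 14.0 to 34.1 in labelled knockdown libraries of days 0, 3 and 5, and fell by 2.21 (SE 0.09, adjusted p = 3.15e-07). Sdc1 fell by 0.41 and Gpc1 by 0.44 (adjusted p = 0.0133 and 0.0202), the latter called under 11 of 19 alternatives. The 1 that rose was Sdc2, by 0.43 (adjusted p = 0.0215), which had the highest mean level of the list, 538.5 CPM. Of 15 heparan sulfate enzymes 3 rose and 3 fell, or 3 and 4 without that library, beside 26.9% and 47.1% of all genes called. The sulfotransferase genes Hs6st1 and Hs6st2 went opposite ways, by 0.73 (adjusted p = 0.00115) and -1.10 (adjusted p = 0.000266), and Extl2 rose by 0.81 (adjusted p = 0.00558). The other enzyme gene that rose, Hs3st3a1, had control means of only 0.206 to 0.433 CPM. It too could reach the minimum counts through labelled knockdown libraries.

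Of 23 adaptor and Ras-ERK chain genes 4 were called, beside 26.9% of all genes: 3 rose and 1 fell. Shc1, an adaptor, rose by 0.48 (adjusted p = 0.00504), Mapk3, which encodes ERK1, by 0.36 (adjusted p = 0.0232, called under 8 of 19 alternatives), and Plcg1, a phospholipase that binds activated receptors, fell by 0.45 (adjusted p = 0.0042). With control day 3 replicate 2 left out, 7 rose and 7 fell, beside 47.1% of all genes called. Of 15 other receptor tyrosine kinase genes 4 rose and 4 fell, or 7 and 4 without that library, beside 26.9% and 47.1%, with Pdgfra at 0.94 (adjusted p = 0.00653), Egfr at -0.59 (adjusted p = 0.000775) and Pdgfrb at -0.43 (adjusted p = 0.00552). Of 3 other ligands tested, 2 rose, Fgf1 and Fgf18, both under 5 CPM. Their control means at days 0, 3 and 5 were at most 0.300 and 0.479 CPM. Such genes could reach the minimum counts through labelled knockdown libraries alone, so their direction is not comparable with the shares of all genes.

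**Figure D4:**
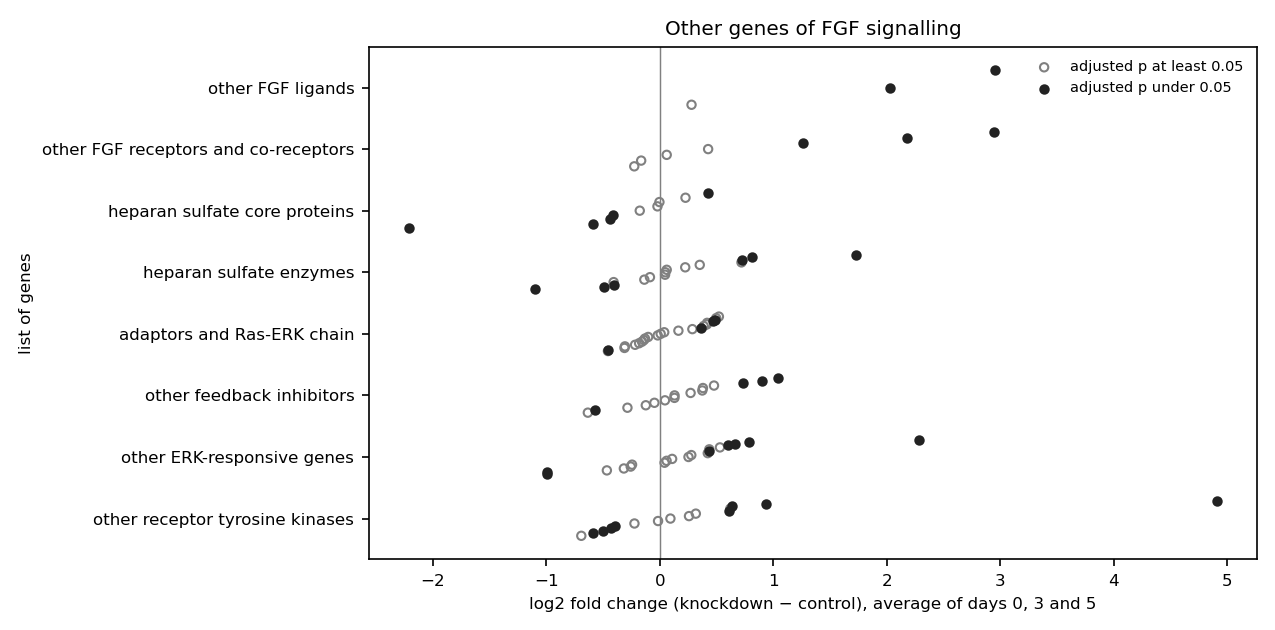
Averaged log2 fold change of libraries labelled knockdown against control (horizontal axis) for each tested gene of 8 lists (vertical axis), filled where the adjusted p was under 0.05 and open otherwise. Filled points lie on both sides of 0 in each list except the other ligands and the co-receptors, where they lie to the right.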

How the data were processed

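RNA of MC3T3-E1 cells was sequenced in 14 libraries. Per the labels' protocols, polyadenylated RNA was made into strand-specific libraries. The submitters' processing notes name bcl2fastq, TopHat2, edgeR and the build GRCm38, and the sources used here do not say how reads were counted or with which strand setting. Per gene, the authors deposited raw counts and RPKM values. The 1 row without a gene symbol held up to 0.00524% of a library and was kept in the tests.

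With TMM scaling, counts were fitted by robust quasi-likelihood in edgeR 4.0.16 under R 4.3.3, with 8 group means and 6 residual degrees of freedom. Tested were the 13130 genes that reached 10 counts in 2 or more libraries (11216 did not), with Benjamini-Hochberg adjustment over all of them and a threshold of 0.05. CPM use the same scaling, correlations a prior count of 2. Scripts were tested on simulated data. Alternatives were DESeq2 1.42.0, limma 3.58.1 on log2(RPKM + 1) and log2(RPKM + 0.1), other scaling, no filter, a replicate block, fewer groups and each of the 12 libraries of days 0, 3 and 5 left out in turn.

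Same-numbered libraries deviated together at days 0, 3 and 5 (correlations 0.234, 0.141 and 0.228), so the numbers may pair the libraries. The main values use no pair term, and the replicate block is the alternative that does. Named were the 10 genes, Macf1, and up to 3 called genes per list with the smallest p and a mean of at least 5 CPM. Sdc2 was named as well, as the 1 core protein that rose. The members and lists were chosen with earlier results of these data known. Sequences and promoter positions are RefSeq's (GRCm38.p6); of 3 motifs searched, GGAA was added after the first 2 gave no match.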

Additional observations from a re-analysis of the deposited data

Results flagged for a closer look

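Fgfr2 and Dusp6 drew attention because all their libraries of one day lay on one side of control and all of another day on the other side. How many of all genes did so was not counted, and with 2 libraries a group such an order can arise by chance. Fgfr2 was below control at day 0 and above it at day 5, and with all libraries neither day's difference passed the test. Its test between days gave an adjusted p of 0.37 (quasi-likelihood test of edgeR, Benjamini-Hochberg adjusted), and 0.000141 without control day 3 replicate 2. Dusp6 was above control at days 0 and 3 and below it at day 5, where its difference did not pass the test. Its test between days gave an adjusted p of 0.166, and 0.00107 without that library.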

How the results depend on the processing

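Spry4, Etv5 and Fgfr3 kept their averaged direction and call under all 19 alternatives run. The counts of the 10 genes called moved more. Without day 3 they were 7 (averaged), 5 (day 0), 6 (day 5), 6 (control day 5 against day 0), 5 (labelled knockdown day 5 against day 0) and 3 (between days). With only the groups compared they were 6, 0 and 6 at days 0, 3 and 5, 0 and 6 in control by days 3 and 5, and 5 and 5 in labelled knockdown. With no filter they were 4 at day 0, 2 at day 5, 4 in control by day 3, 2 in labelled knockdown by day 3 and 3 between days. DESeq2 and the fit with no filter each gave 6 averaged (5 higher, 1 lower, against 4), and Fgf2 and Fgf7 were each called averaged under 5 of 19 alternatives. DESeq2 gave 2 at day 5, 3 in control by day 3, 2 in labelled knockdown by day 3 and 2 between days. Limma on log2(RPKM + 1) gave 1 at day 5 and 0 in control by day 3, and with 0.1 added also 0 there. The replicate block, a pairing of libraries by number, gave 1 at day 5, turned Spry4 in control by day 3 to 0.0385 and changed no other call than those of Spry4 and Fgfr2 given above. With 1 library left out, counts ranged from 3 to 8 (averaged), 1 to 5, 0 to 7 and 0 to 6 at days 0, 3 and 5, 0 to 5 and 2 to 7 in control by days 3 and 5, 0 to 5 and 1 to 5 in labelled knockdown, and 0 to 6 between days.

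Directions turned only for differences that had not passed the test with all libraries, and the cause was not tested. The averaged Fgfr2 difference was nonetheless called in opposite directions when 1 or the other control day 3 library was left out, as given above. Averaged, Fgfr2 gave 0.0051 with no filter and 0.13 and 0.13 by limma, Spry1 0.0197 by limma with 0.1 added, and Macf1 -0.0466 without day 3. By limma, Fgfr1 at day 0 gave 0.0131 and 0.0134, and Spry2 in labelled knockdown by day 3 gave 0.0208 and 0.029; Etv5 in control by day 5 gave 0 with no filter. With 1 library left out, the averaged ranges were -0.18 to 0.25 for Fgfr2, -0.28 to 0.15 for Spry1 and -0.0819 to 0.51 for Macf1. At day 0 they were -0.12 to 0.0673 for Fgfr1 and -0.38 to 0.25 for Spry2. At day 3 they were -0.0008 to 1.28 for Fgfr2, -0.28 to 0.99 for Spry1 and -0.13 to 0.25 for Spry2, and at day 5 -0.26 to 0.0374 for Fgfr3. In control by day 3 they were -0.0791 to 1.52 for Fgf2, -0.94 to 0.36 for Fgfr2, -0.36 to 0.17 for Spry2 and -1.34 to 0.72 for Spry4, and by day 5 -0.23 to 1.22 for Spry4 and -0.56 to 0.40 for Etv5. In labelled knockdown by day 3 they were -0.0269 to 0.0404 for Dusp6 and -0.30 to 0.29 for Spry2, and by day 5 -0.21 to 0.38 for Spry2. Depth limits Spry4 most, with 4 to 195 counts a library.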
